A study of Mus musculus with 4 samples.

Results

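Genes of the ferroptosis defences that work beside the glutathione peroxidase GPX4, together with genes that supply their reducing power, were examined for Ruvbl2 CUT&Tag peaks. The 10 members, of 21887 protein-coding genes in the RefSeq table of mouse assembly GRCm38.p6 (the coordinates of mm10), were chosen by function and by name: Aifm2, Dhodh and Nqo1 of the coenzyme Q (CoQ) route, Gch1 of the tetrahydrobiopterin (BH4) route, Dhcr7 and Sqle of the sterol route, Mboat1 and Mboat2 of the phospholipid remodelling route, and G6pdx and Pgd of the NADPH route. The locus of a member was its gene body with 10 kb on each side, and every deposited peak that overlapped a locus by at least 1 bp was taken. All 10 were found in the table. The members were chosen with earlier results of these data known, so their counts are not independent support.

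CUT&Tag uses an antibody to direct a transposase to chromatin, so that DNA near the bound protein is cut out and sequenced. The antibody was raised against Ruvbl2, an ATPase of the INO80, SRCAP and TIP60 chromatin complexes. The LSC libraries were from leukaemia stem cells, sorted from bone marrow of MLL-AF9-driven mice as CD34+ CD16/32+ cells of the Lin-, c-Kit+ and Sca-1- fraction. The HSC libraries were from haematopoietic stem cells of bone marrow, sorted as CD150+ CD48- LSK (Lin-, Sca-1+, c-Kit+) cells. All 4 libraries, 2 LSC and 2 HSC, carried the genotype Nup214fl/+, and neither group is labelled as having lost Nup214. The LSC gate is also that of granulocyte-monocyte progenitors, so maturation and leukaemia cannot be told apart. Groups were taken from the sample titles, since every library, LSC included, has a cell type label of haematopoietic stem cell. The sources used here give no animal age and do not say whether the libraries of a group came from separate animals. What the spread between libraries measures is therefore unknown. The labels name no control without that antibody, and they name a goat anti-rabbit secondary antibody but no host species for the first one. How far a peak depends on Ruvbl2 was therefore not tested.

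Ferroptosis is cell death from iron-driven peroxidation of membrane lipids. GPX4 reduces lipid peroxides with glutathione. Beside it, cells can stop the radical chain with lipid-soluble antioxidants: Aifm2 (also called FSP1) at the plasma membrane and Dhodh in mitochondria reduce CoQ to ubiquinol, BH4 made through Gch1 traps radicals, and 7-dehydrocholesterol, the substrate of Dhcr7, and squalene, the substrate of Sqle, can act as radical traps too. Mboat1 and Mboat2 place monounsaturated fatty acids into phospholipids, which are poor substrates for peroxidation. G6pdx and Pgd are the NADPH-making steps of the pentose phosphate pathway, and NADPH feeds many of these reductions.

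The libraries differed in ways that their groups do not explain. The deposited lists held 216077 and 210541 peaks for LSC replicates 1 and 2, and 161655 and 286107 for HSC replicates 1 and 2. The lists hold no read totals, and the depth of sequencing is unknown. The background of overlapping fragments, recovered from the peak values, was 4.46 and 3.72 in LSC replicates 1 and 2, and 2.66 and 4.34 in HSC replicates 1 and 2. Peaks on the Y chromosome numbered 94.2 and 1.24 per 10000 in LSC replicates 1 and 2, and 91.8 and 0.561 in HSC replicates 1 and 2. In both groups replicate 1 was thus far higher than replicate 2, so replicate number and this difference cannot be told apart. Names of the peaks also follow one scheme in replicate 1 and another in replicate 2 of both groups. Stem cell markers (Hlf, Procr, Mecom, Meis1 and Fgd5) had a listed peak at a gene end in 0 of 5 cases in each of the 4 libraries. For granulocyte-monocyte markers (Mpo, Elane, Ctsg, Prtn3 and Spi1) the counts were 4 and 3 of 5 in LSC replicates 1 and 2, and 3 and 4 of 5 in HSC replicates 1 and 2. Of all protein-coding genes 11.0% and 25.5% had one in LSC replicates 1 and 2, and 10.6% and 25.1% in HSC replicates 1 and 2. The marker counts are of peaks and not of RNA levels, and they do not separate the groups.

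Several values are used throughout. The fold is the authors' enrichment of a peak over the background of its own library, and it serves to rank peaks within that library. The rank orders peaks by the deposited −log10 p, with 1 the strongest. A listed peak is one of the 20000 strongest of its library on chromosomes 1 to 19, X and Y, which gives lists of equal length. The weakest listed fold was 28.4 and 18.2 in LSC replicates 1 and 2, and 22.7 and 12.7 in HSC replicates 1 and 2. The pileup is the number of fragments stacked at the summit, and its 95% exact Poisson interval covers counting error only, since PCR copies are not independent molecules.

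The start regions of 5 members are printed first. Pgd, G6pdx and Dhcr7 carried listed peaks there, while Gch1 and Nqo1, one CpG-rich and one CpG-poor, carried weaker ones. Each runs from 250 bases before an annotated RefSeq start to 50 bases from it onward, 5′ to 3′ on the gene's strand (GRCm38.p6). Capitals mark matches, on either strand, to 5 motifs. GGGCGG is the GC box. CCAAT is the box named after its letters. TGACNNNGC is the core of the antioxidant response element. TCACNCCAC is a form of the sterol regulatory element. CACGTG is the E-box. Matches of different motifs may overlap. The windows are Pgd at chr4:149166656-149166955 on the minus strand, G6pdx at chrX:74428831-74429130 on the minus strand, the first and last annotated starts of Dhcr7 at chr7:143822917-143823216 and chr7:143829964-143830263 on the plus strand, Gch1 at chr14:47189364-47189663 on the minus strand and Nqo1 at chr8:107403156-107403455 on the minus strand.
Pgd: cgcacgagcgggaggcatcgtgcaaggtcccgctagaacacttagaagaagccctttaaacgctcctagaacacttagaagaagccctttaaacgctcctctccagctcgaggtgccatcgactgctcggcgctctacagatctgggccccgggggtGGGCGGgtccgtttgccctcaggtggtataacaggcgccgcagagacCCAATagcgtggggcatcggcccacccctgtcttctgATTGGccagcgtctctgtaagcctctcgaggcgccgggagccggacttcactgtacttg
G6pdx: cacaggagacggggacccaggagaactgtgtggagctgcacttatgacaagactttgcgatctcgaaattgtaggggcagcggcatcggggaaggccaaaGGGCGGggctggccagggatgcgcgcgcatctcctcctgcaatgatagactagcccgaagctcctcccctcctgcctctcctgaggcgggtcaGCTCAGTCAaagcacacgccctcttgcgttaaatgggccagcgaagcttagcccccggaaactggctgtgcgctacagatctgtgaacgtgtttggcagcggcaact
Dhcr7 first start: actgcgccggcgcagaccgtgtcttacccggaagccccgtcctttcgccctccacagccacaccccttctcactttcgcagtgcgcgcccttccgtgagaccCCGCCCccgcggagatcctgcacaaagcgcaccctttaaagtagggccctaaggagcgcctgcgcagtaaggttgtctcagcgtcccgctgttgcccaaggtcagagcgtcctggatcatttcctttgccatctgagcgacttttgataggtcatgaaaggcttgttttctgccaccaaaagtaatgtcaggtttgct
Dhcr7 last start: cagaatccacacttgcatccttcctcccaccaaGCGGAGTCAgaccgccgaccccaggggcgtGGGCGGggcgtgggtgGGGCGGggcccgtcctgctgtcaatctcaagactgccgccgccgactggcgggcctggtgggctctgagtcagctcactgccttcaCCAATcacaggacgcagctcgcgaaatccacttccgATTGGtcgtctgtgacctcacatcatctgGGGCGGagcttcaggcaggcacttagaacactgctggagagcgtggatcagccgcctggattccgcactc
Gch1: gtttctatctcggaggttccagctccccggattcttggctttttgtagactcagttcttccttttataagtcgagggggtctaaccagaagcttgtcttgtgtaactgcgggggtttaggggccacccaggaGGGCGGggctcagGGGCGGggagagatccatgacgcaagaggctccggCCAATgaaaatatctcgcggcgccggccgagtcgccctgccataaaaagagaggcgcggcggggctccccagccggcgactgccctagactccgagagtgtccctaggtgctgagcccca
Nqo1: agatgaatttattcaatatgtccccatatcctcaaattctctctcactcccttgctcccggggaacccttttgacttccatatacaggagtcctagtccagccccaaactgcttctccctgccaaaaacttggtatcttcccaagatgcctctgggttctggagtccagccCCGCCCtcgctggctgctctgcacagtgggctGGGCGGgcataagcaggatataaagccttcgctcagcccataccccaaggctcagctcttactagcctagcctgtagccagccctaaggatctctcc

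The RefSeq promoter table held 11 starts for 8 of the 10 members, Dhodh and Sqle being the others. GGGCGG occurred in 8 of these 11 windows, against 35.7% of all 32851 promoter windows of the table. CCAAT was found in 5 of 11 (37.4% of all), TGACNNNGC in 3 of 11 (12.4%), CACGTG in 1 of 11 (7.15%) and TCACNCCAC in 0 of 11 (1.24%). With the start base as position 0, the TGACNNNGC matches began at position -57 of G6pdx, at -217 of the last Dhcr7 start and at 3 of the second Pgd start, which lies at 149166082. A match is a string of letters and is not shown to be a binding site, and no match says only that these letters are not in the window. The GC share ran from 48.7% at the second Dhcr7 start to 76.3% at Mboat2, against a median of 52.7% over all windows. CpG pairs numbered 23 in the window of the first Pgd start, 18 at G6pdx, 21 at each of the first and last Dhcr7 starts and 20 at Gch1, and 40 at Mboat2 and 29 at Mboat1. Nqo1 had 5 and Aifm2 4, beside a median of 7 over all windows.

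Across the 4 libraries 268 peaks overlapped the member loci, of which 41 were listed. LSC replicates 1 and 2 held 68 each, and HSC replicates 1 and 2 held 37 and 95. Per 10 kb that was 1.11 in both LSC libraries and 0.606 and 1.56 in HSC replicates 1 and 2, beside 1.04, 1.04, 0.730 and 1.38 over the loci of all protein-coding genes in the same order. The density of peaks at the members thus followed that of the library. Each of the 10 loci held a peak of some strength in each of the 4 libraries, as did 83.0% of all protein-coding loci. Single-library shares of all genes were 93.9% and 93.9% in LSC replicates 1 and 2, and 90.8% and 95.5% in HSC replicates 1 and 2. Listed peaks, by contrast, reached 8 and 7 of the 10 loci in LSC replicates 1 and 2 (44.3% and 52.0% of all genes) and 4 and 7 in HSC replicates 1 and 2 (42.1% and 51.8%). Of the member peaks 13.2% and 17.6% were listed in LSC replicates 1 and 2, and 18.9% and 13.7% in HSC replicates 1 and 2, beside 9.35%, 9.58%, 12.5% and 7.02% of all peaks. All peaks here include those outside gene loci. The share for peaks at all protein-coding loci is not given, so the higher member shares cannot be read as particular to the members.

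**Figure D1:**
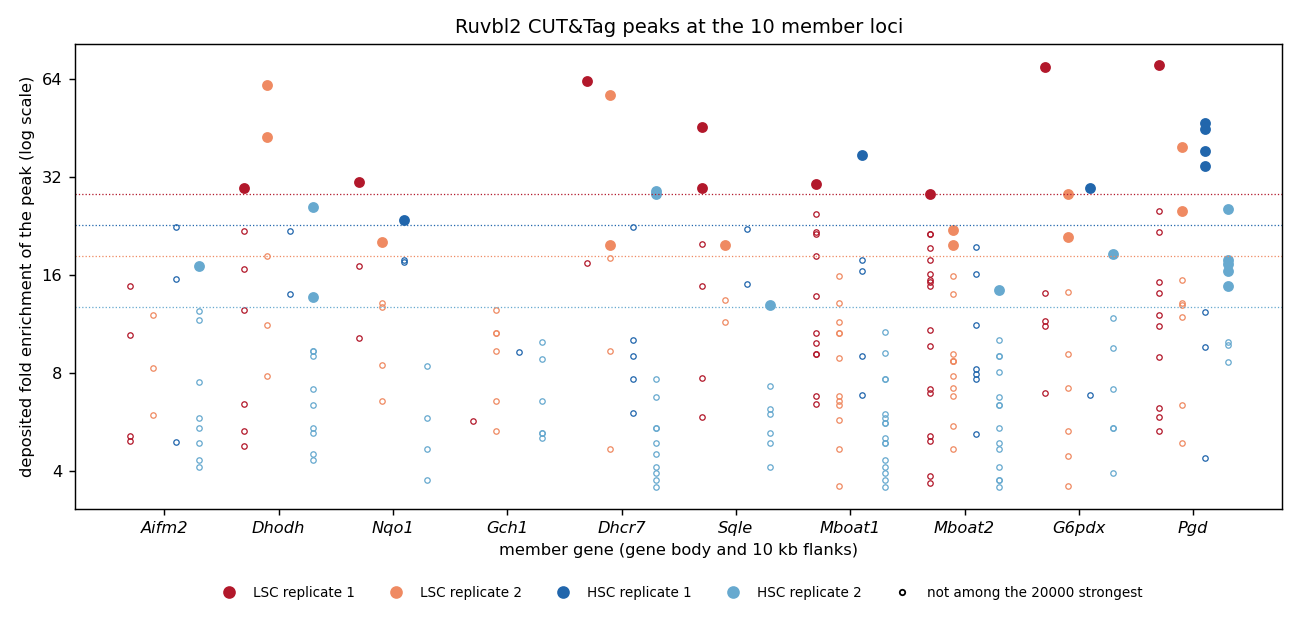
Deposited fold enrichment (log scale) of each of the 268 peaks at the 10 member loci, with LSC libraries in red shades left of HSC libraries in blue shades. Filled points are listed peaks, open points weaker ones, and dotted lines the weakest listed fold of each library. Pgd carries 12 of the 41 listed peaks and Gch1 none.

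Of the 268 peaks, 21 lay within 1000 bp of an annotated start of the member, and 16 at a gene end but not near such a start. A further 152 lay elsewhere in the gene body and 79 in the flanks. Listed peaks divided into 10, 3, 17 and 11 of these. Dhodh and Sqle have no annotated start here, so peaks at either of their ends count as gene ends. Shares of these places over all protein-coding loci are not given. Merging overlapping peaks over the libraries gave 206 regions, of which 160 (77.7%) were found in 1 library, 35 in 2, 8 in 3 and 3 in all 4. Over the loci of all protein-coding genes 81.7% of 404676 regions were found in 1 library and 0.877% in all 4. The 3 regions in all 4 libraries were all at Pgd. Among the 35 regions in 2 libraries, 5 paired the LSC libraries and 6 the HSC libraries. Pairs of an LSC and an HSC library made up the rest, with 11 for both replicate 2 libraries, 9 for LSC replicate 1 with HSC replicate 2, 3 for LSC replicate 2 with HSC replicate 1 and 1 for both replicate 1 libraries. Counts of such pairs over the loci of all protein-coding genes are not given. The lists also differ in length, and the part of this in the pair counts was not tested.

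**Figure D2:**
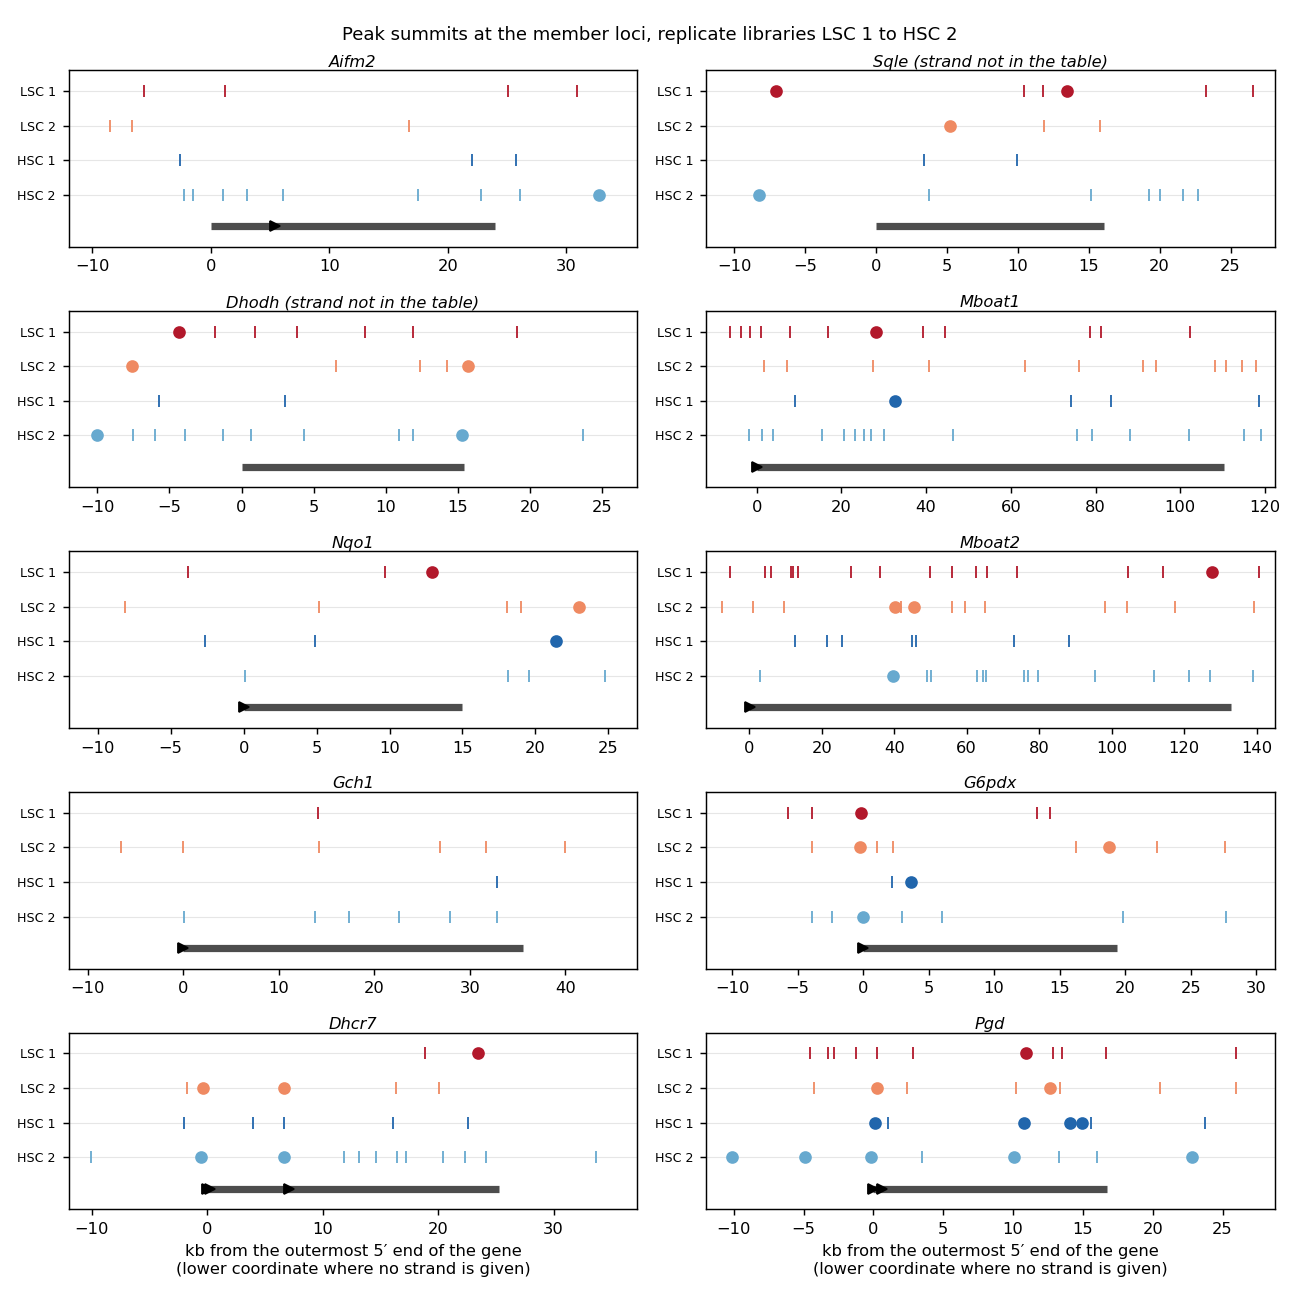
Summits of peaks at the 10 loci in kb from the 5′ end of the gene, or from its lower coordinate for Dhodh and Sqle, with LSC rows above HSC rows. Circles are listed peaks, ticks weaker ones, grey bars gene bodies and arrowheads annotated starts. Some listed peaks lie at the starts of Pgd, G6pdx and Dhcr7 and at the higher-coordinate end of Dhodh. Of the 41 listed peaks, 17 lie elsewhere in gene bodies and 11 in flanks.

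Aifm2 (chromosome 10, 61715263 to 61739260), a CoQ reductase, had few and mostly weak peaks. It had 4 and 3 peaks in LSC replicates 1 and 2, and 3 and 9 in HSC replicates 1 and 2. The strongest had folds of 14.8 and 12.1 in LSC replicates 1 and 2, and 22.4 and 17.0 in HSC replicates 1 and 2. All 4 of these strongest peaks lay in the flanks, 2620 to 8783 bp from the nearest gene end. Only that of HSC replicate 2 (61747498 to 61748225, rank 6291) was listed, and it lay inside the neighbouring histone variant gene Macroh2a2, which overlaps the 3′ end of Aifm2. The strongest of HSC replicate 1 ranked 20378, just below the 20000 peaks that are listed. Within the gene body alone the highest folds were 5.12 and 8.26 in LSC replicates 1 and 2, and 4.92 and 12.4 in HSC replicates 1 and 2. Near the annotated start at 61720649 there was a single weak peak, in HSC replicate 2 (fold 4.30, rank 229819), with its summit 723 bp downstream. That start lies inside the gene, whose outermost 5′ end is at 61715263. Within 1000 bp of this end HSC replicate 2 had the peak of fold 12.4 (61716052 to 61716597, rank 21618). It overlapped the LSC replicate 1 peak of fold 5.12.

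At Dhodh (chromosome 8, 109593244 to 109608699), which links pyrimidine synthesis to CoQ in the inner mitochondrial membrane, the strongest peaks lay at the higher-coordinate end of the gene in both replicate 2 libraries. The peak of LSC replicate 2 (109608510 to 109609186) had a fold of 61.2, a rank of 568 and a pileup of 288 (interval 256 to 323), and was the strongest by rank at any member in any library. The overlapping peak of HSC replicate 2 (109608232 to 109609456) had a fold of 25.8, a rank of 1855 and a pileup of 137 (interval 115 to 162). The summits lay 259 bp beyond and 175 bp inside the gene end. Neither replicate 1 library had a peak of any strength there. Other listed peaks lay in the flank on the opposite side: one at 109588377 to 109589050 in LSC replicate 1 (fold 29.5), one at 109585239 to 109586349 in LSC replicate 2 (fold 42.4, rank 1528) and one at 109582900 to 109583398 in HSC replicate 2 (fold 13.7). That of HSC replicate 2 overlapped the lncRNA gene Gm39247, and the LSC replicate 2 peak lay within 1000 bp of its end. HSC replicate 1 had 2 peaks at the locus, the stronger of rank 22250.

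Nqo1 (chromosome 8, 107388225 to 107403205) encodes a quinone reductase that is a classical target of the antioxidant transcription factor NRF2. It had 3 and 5 peaks in LSC replicates 1 and 2, and 3 and 4 in HSC replicates 1 and 2. A listed peak was found in 3 libraries, each at another place: inside the gene at 107390073 to 107390474 in LSC replicate 1 (fold 30.9, rank 16558), downstream at 107380079 to 107380361 in LSC replicate 2 (fold 20.1, rank 14414), within 1000 bp of an end of Nfat5, and downstream at 107381663 to 107381887 in HSC replicate 1 (fold 23.5, rank 18667). None of these 3 overlapped a peak of another library. The start carried a peak in HSC replicate 2 alone, from 107401959 to 107403193, with its summit 63 bp downstream of the start, a fold of 8.42 and a rank of 74607. Of its 13 regions 2 were shared, both by the replicate 2 libraries and both downstream of the gene.

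Gch1 (chromosome 14, 47153895 to 47189413), the rate-limiting enzyme of BH4 synthesis, was the member with no listed peak in any library, a state shared by 22.7% of all protein-coding loci. LSC replicates 1 and 2 had 1 and 6 peaks there, and HSC replicates 1 and 2 had 1 and 6. Their folds ran from 5.05 to 12.5. The start was covered in both replicate 2 libraries, by a peak of fold 5.29 in LSC replicate 2 (47189158 to 47189550, rank 180782) and one of fold 9.92 in HSC replicate 2 (47189264 to 47189727, rank 48769). Their summits lay 37 bp upstream and 81 bp downstream of the start, in or next to the sequence printed above. Pileups of 24 (interval 15.4 to 35.7) and 52 (38.8 to 68.2) stood behind them. Within the gene, LSC replicates 1 and 2 shared a weak peak at 47175092 to 47175388 with summits 23 bp apart, and HSC replicates 1 and 2 shared one at 47156106 to 47156857 with summits 7 bp apart. The folds were 5.67 and 10.6 in LSC replicates 1 and 2 at the first site, and 9.29 and 6.55 in HSC replicates 1 and 2 at the second.

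Dhcr7 (chromosome 7, 143823167 to 143848410) makes cholesterol from 7-dehydrocholesterol, so its loss leaves more of a radical trap. It had listed peaks at annotated starts in both replicate 2 libraries. At the first start the peak of LSC replicate 2 (143822247 to 143823126) had a fold of 57.0, a rank of 689 and a pileup of 268 (interval 237 to 302). The peak of HSC replicate 2 there (143821728 to 143823329) had a fold of 29.0, a rank of 1352 and a pileup of 154 (interval 131 to 180.3). Neither replicate 1 library had a peak within 1000 bp of that start. The start lies 305 bp from the divergent gene Nadsyn1, which encodes an enzyme of NAD synthesis, and the summits, 347 and 565 bp upstream of Dhcr7, were inside Nadsyn1 by 32 and 250 bp from its annotated start. The peak can therefore not be assigned to Dhcr7 alone.

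The last annotated start of Dhcr7, at 143830214 inside the gene, carried a peak in 3 libraries. Its fold was 19.7 in LSC replicate 2 (rank 15484), and 22.4 and 28.3 in HSC replicates 1 and 2 (ranks 20884 and 1427). The 3 summits lay within 59 bp of each other, 374 to 433 bp upstream of that start and just outside the printed sequence. LSC replicate 1 had no peak there. Its strongest Dhcr7 peak instead lay near the 3′ end of the gene at 143846244 to 143846875, with a fold of 62.8, a rank of 4331 and a pileup of 342 (interval 307 to 380.2). Weaker peaks of HSC replicates 1 and 2 fell in the same merged region, with folds of 7.65 and 6.74 and summits up to 1149 bp away.

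Sqle (chromosome 15, 59315092 to 59331193), the squalene epoxidase, had listed peaks that did not recur at any place in a second library. LSC replicate 1 had one inside the gene at 59328449 to 59328633 (fold 45.6, rank 8242, width 185 bp) and one in the flank at 59307797 to 59308236 (fold 29.5). LSC replicate 2 had one inside the gene at 59319947 to 59320760 (fold 19.7, rank 15199). HSC replicate 2 had one in the flank at 59306734 to 59307148 (fold 12.9, rank 18362), which like the flank peak of LSC replicate 1 touched the neighbour Zfp572. The strongest of HSC replicate 1 ranked 21176. At the end near Washc5, 670 bp away, LSC replicate 2 had a weaker peak (59330587 to 59331445, fold 13.3, rank 40670).

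The acyltransferase genes Mboat1 (chromosome 13, 30136451 to 30246694) and Mboat2 (chromosome 12, 24831435 to 24964400) are the longest members, at 110 and 133 kb. They held the most peaks, 45 and 52 over the 4 libraries, but 2 and 4 listed ones. Mboat1 had 12 peaks in each LSC library, and 5 and 16 in HSC replicates 1 and 2. Its listed peaks were at 30164600 to 30164783 in LSC replicate 1 (fold 30.4, rank 17053) and at 30168929 to 30169302 in HSC replicate 1 (fold 37.4, rank 6785), both inside the gene and without overlap. The second lay inside the lncRNA gene Gm40869 as well. At the 3′ end LSC replicate 2 had a weaker peak (30247137 to 30247525, fold 15.9, rank 28045). Mboat2 had 17 and 13 peaks in LSC replicates 1 and 2, and 7 and 15 in HSC replicates 1 and 2. The listed ones were at 24959142 to 24959352 in LSC replicate 1 (fold 28.4, rank 19788), at 24871217 to 24871905 and 24876837 to 24877566 in LSC replicate 2 (folds 22.0 and 19.7) and at 24870676 to 24871337 in HSC replicate 2 (fold 14.4, rank 11810). The first of the LSC replicate 2 peaks and that of HSC replicate 2 overlapped, with summits 40227 and 39749 bp from the 5′ end of the gene. The second LSC replicate 2 peak overlapped a weaker peak of HSC replicate 1 (fold 7.93).

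Both genes have CpG-rich starts, yet peaks there were weak or missing. Within 1000 bp of the Mboat1 start, peaks of fold 6.41 in LSC replicate 1 and 5.80 in HSC replicate 2 had summits 1087 and 1188 bp downstream. The Mboat2 gene body begins 118 bp from the divergent lncRNA gene 2900060N12Rik. Near the annotated start of Mboat2, at 24831599, LSC replicate 2 had a peak of fold 7.20 (rank 142856) with its summit 812 bp downstream. No other library had one, and no peak overlapped the 300 bases around either start.

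G6pdx (X chromosome, 74409483 to 74428880), the entry enzyme of the oxidative pentose phosphate pathway, had a listed peak at its start in 3 libraries. In LSC replicate 1 it spanned 74429034 to 74429261, with a fold of 69.5, a rank of 3258 and a pileup of 379 (interval 342 to 419). In LSC replicate 2 it spanned 74428430 to 74429718, with a fold of 28.4, a rank of 4395 and a pileup of 133 (interval 111 to 158). In HSC replicate 2 it spanned 74428430 to 74430047, with a fold of 18.5, a rank of 4813 and a pileup of 98 (interval 79.6 to 119). The summits lay 186 and 236 bp upstream of the start in LSC replicates 1 and 2, and on the start base in HSC replicate 2, all within the printed sequence. HSC replicate 1 had no peak within 1000 bp of the start. Its listed peak (74425169 to 74425640, fold 29.5, rank 12224) lay inside the gene, 3685 bp downstream of the start, and within 1000 bp of an internal start of Ikbkg.

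Ikbkg encodes the NEMO subunit of the IκB kinase, lies over the whole of G6pdx and runs on the opposite strand with an annotated start that faces that of G6pdx. The peaks can therefore not be assigned to one of the genes. A second listed peak of LSC replicate 2 (74409850 to 74410511, fold 21.0) lay at the 3′ end of G6pdx. Of all peaks, 2.65% and 3.94% were on the X chromosome in LSC replicates 1 and 2, and 2.79% and 4.27% in HSC replicates 1 and 2, and the part of this difference in the G6pdx values was not tested.

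Pgd (chromosome 4, 149149991 to 149166705), 6-phosphogluconate dehydrogenase, the next NADPH-making enzyme of the pathway, had the most listed peaks of the 10 members. It held 12 of the 41, with 1 and 2 in LSC replicates 1 and 2, and 4 and 5 in HSC replicates 1 and 2. At the first annotated start the fold was 6.22 and 39.6 in LSC replicates 1 and 2, and 44.8 and 25.5 in HSC replicates 1 and 2. The ranks were 172576 and 1818 in LSC, and 3657 and 1927 in HSC. LSC replicate 1 was thus the low library and lay far outside its list, so the groups overlap. Pileups were 33 (interval 22.7 to 46.3) and 186 (160.2 to 215) in LSC replicates 1 and 2, and 163 (139 to 190.0) and 135 (113 to 159.8) in HSC replicates 1 and 2. The summits of the LSC replicates lay 226 and 223 bp downstream of the start, that of HSC replicate 1 86 bp downstream and that of HSC replicate 2 150 bp upstream. A peak of some strength within 1000 bp of a start in all 4 libraries was found at 1 of 8 members, Pgd, and at 10.7% of the 17492 protein-coding genes with a start in the table.

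A second Pgd region inside the gene, at 149155732 to 149156878, was strong in another set of libraries. Its fold was 70.5 and 11.9 in LSC replicates 1 and 2, and 46.7 and 16.5 in HSC replicates 1 and 2. It was listed in LSC replicate 1 (rank 3147) and in both HSC libraries (ranks 3100 and 7248), and not in LSC replicate 2 (rank 54602). The summits were spread over 836 bp. The third region found in all libraries, at 149152098 to 149154310, was listed in LSC replicate 2 (fold 25.2, rank 6161) and HSC replicate 1 (fold 34.4, rank 8615). In LSC replicate 1 and HSC replicate 2 the folds were 15.2 and 8.61. The other listed peaks were one of HSC replicate 1 inside the gene (149151605 to 149151868, fold 38.3) and 3 of HSC replicate 2 in the flanks, at 149143794 to 149144647 (fold 14.8), at 149170763 to 149174577 (fold 17.8) and at 149176239 to 149176965 (fold 17.2). The middle one, 3815 bp wide, was the widest peak at any member, and the last touched the neighbour Kif1b. The first of the 3 lay within 1000 bp of the pseudogene Rpsa-ps12.

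**Figure D3:**
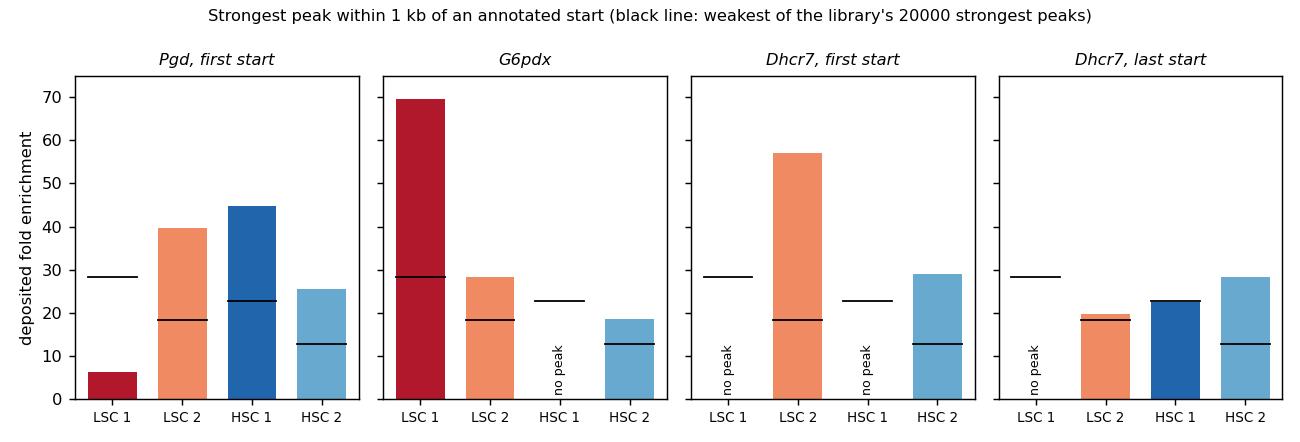
Deposited fold of the strongest peak within 1 kb of 4 annotated starts, with LSC bars left of HSC bars and a black line at the weakest listed fold of each library. Pgd has a weak peak in LSC replicate 1 (fold 6.22) and listed ones elsewhere, G6pdx has no peak in HSC replicate 1, and both Dhcr7 starts have none in LSC replicate 1.

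The comparison on which the study is built is LSC against HSC. Of the 10 members, 0 had a listed peak at the locus in both LSC libraries and in neither HSC library, against 2.84% of all protein-coding genes, and 0 showed the reverse, against 2.33%. Listed in all 4 libraries were G6pdx and Pgd, 2 of 10, beside 18.1% of all genes. That count depended on the length of the lists: it was 1 (Pgd) with the 10000 strongest peaks of each library and 7 with the 40000 strongest, which left out Aifm2, Gch1 and Nqo1. A longer list adds peaks for all genes too, and their shares at these lengths are not given. The 4 libraries can be divided into pairs in 3 ways, and an exact two-sided permutation test could therefore reach no p below 0.333, so none was run. Counts by replicate number did not repeat. Within replicate 1, Dhcr7, Dhodh, Mboat2 and Sqle were listed in LSC and not in HSC (4 members, 18.5% of all genes), and 0 members the other way (16.2%). Mboat1 was listed in both replicate 1 and in neither replicate 2 library (2.49% of all genes), and 0 members showed the reverse (6.74%). Within replicate 2, Nqo1 was listed in LSC alone (12.8% of all genes) and Aifm2 in HSC alone (12.7%). Of the 4 genes of replicate 1, 3 had an HSC replicate 1 peak ranked between 20000 and 22250, namely Dhcr7, Sqle and Dhodh, so they missed the list narrowly.

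Some of these counts changed when single libraries were left out. Leaving out a library loosens the rules for every gene, so that counts can only stay or rise. The shares of all genes under these rules are not given. Without HSC replicate 2, LSC-only members numbered 4 and HSC-only members 0. Without HSC replicate 1 there was 1 of each, Nqo1 and Aifm2, and 6 members were listed in all remaining libraries. Without either LSC library the counts were 0 and 0. Sqle became LSC-only with flanks of 5000 bp or none, since the listed peak of HSC replicate 2 lies in its flank, but the LSC peaks inside the gene do not overlap each other. Aifm2 became HSC-only among the 40000 strongest peaks.

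Gene ends were counted separately. A peak of any strength lay within 1000 bp of a gene end at 5 and 8 of 10 members in LSC replicates 1 and 2 (47.6% and 58.8% of all genes), and at 1 and 9 in HSC replicates 1 and 2 (38.2% and 64.5%). Pgd was the 1 member with such a peak in all 4 libraries (15.6% of all genes). A listed peak within 1000 bp of a gene end was found at 1 and 4 of 10 members in LSC replicates 1 and 2, against 11.0% and 25.5% of all genes, and at 1 and 4 in HSC replicates 1 and 2, against 10.6% and 25.1%. The 4 were the same in both replicate 2 libraries: Dhcr7, Dhodh, G6pdx and Pgd. G6pdx was the one in LSC replicate 1 and Pgd the one in HSC replicate 1. With windows of 1000 bp the listed counts of the members thus differed between replicate numbers and not between cell types. With windows of 3000 bp they were 4 and 4 in LSC replicates 1 and 2, and 1 and 4 in HSC replicates 1 and 2, so that HSC replicate 1 alone was lower. Shares of all genes with windows of 3000 bp are not given. Listed in all 4 libraries were 0 of 10 (2.91% of all genes), in both LSC and neither HSC library 0 (0.932%), and the reverse 0 (0.873%). In none of the 4 were 6 members (60.1% of all genes): Aifm2, Gch1, Mboat1, Mboat2, Nqo1 and Sqle. Dhcr7 and Dhodh were listed in both replicate 2 and in neither replicate 1 library, as were 7.91% of all genes, while 0 members and 0.265% of all genes showed the reverse. At annotated starts, a peak of any strength was found at 3 and 5 of 8 members in LSC replicates 1 and 2 (35.3% and 50.8% of genes with a start), and at 2 and 7 in HSC replicates 1 and 2 (28.1% and 54.8%). The listed counts were 1 and 3 of 8 members in LSC replicates 1 and 2 (9.54% and 24.8% of genes with a start), and 1 and 3 in HSC replicates 1 and 2 (9.03% and 24.1%). Listed at a start in all 4 libraries were 0 of 8 (2.84%), LSC-only 0 (0.835%), HSC-only 0 (0.789%) and in no library 5 (63.4%). The part of animal, sex or preparation in these differences between libraries was not tested.

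**Figure D4:**
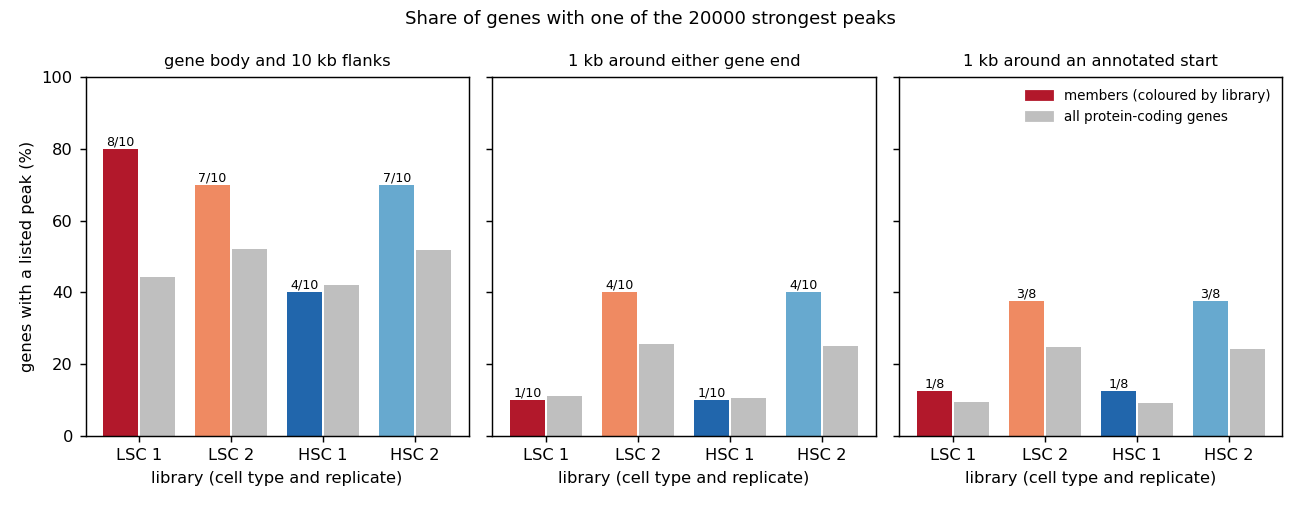
Percentage of genes with a listed peak at the locus, at a gene end or at an annotated start, for the members (coloured bars, with counts) and for all protein-coding genes (grey), LSC libraries left of HSC libraries. At gene ends 4 of 10 members have one in both replicate 2 libraries and 1 of 10 in both replicate 1 libraries, and the grey bars differ between replicate numbers too.

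Other genes of the same routes were read for context, 78 in all, from lists drawn up by function. A listed peak at a gene end was found at 22 and 43 of them in LSC replicates 1 and 2 (28.2% and 55.1%), and at 15 and 38 in HSC replicates 1 and 2 (19.2% and 48.7%), beside the 11.0%, 25.5%, 10.6% and 25.1% of all genes. By route, LSC replicates 1 and 2 and HSC replicates 1 and 2 held 6, 11, 5 and 7 of 17 CoQ genes and 2, 4, 2 and 3 of 7 BH4 genes. In the same order they held 6, 16, 5 and 14 of 24 sterol genes, 4, 3, 1 and 5 of 9 acyltransferase genes and 4, 9, 2 and 9 of 21 NADPH genes. Listed in all 4 libraries were 5 of the 78, beside 2.91% of all genes. Agpat1, which makes phosphatidic acid, had folds of 123 and 148 in LSC replicates 1 and 2, and 129 and 96.6 in HSC replicates 1 and 2. Qdpr, which recycles BH4, had folds of 112 and 58.4 in LSC, and 30.3 and 27.7 in HSC replicates 1 and 2. Fdps, which makes farnesyl diphosphate, had 76.5 and 66.3 in LSC, and 25.4 and 37.4 in HSC replicates 1 and 2. Folds are not comparable between libraries, so ranks are given too. In LSC replicates 1 and 2 and HSC replicates 1 and 2, Agpat1 ranked 322, 60, 94 and 77. In the same order Qdpr ranked 462, 645, 11530 and 1506, and Fdps 2397, 450, 15821 and 716.

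The other two were the N-myristoyltransferase genes, whose products attach the lipid that holds Aifm2 at membranes. Nmt1 had folds of 44.8 and 80.05 in LSC replicates 1 and 2, and 103 and 55.0 in HSC replicates 1 and 2. Nmt2 had 49.96 and 48.3 in LSC, and 29.0 and 39.5 in HSC. In LSC replicates 1 and 2 and HSC replicates 1 and 2, Nmt1 ranked 8470, 263, 144 and 276, and Nmt2 6972, 1087, 12538 and 618. HSC replicate 2 thus ranked above LSC replicate 1 at Fdps, Nmt1, Nmt2 and Agpat1, while at Qdpr both LSC ranks were the stronger. Scap, the escort of the sterol-sensing transcription factors, was listed in both LSC libraries (folds 48.1 and 21.8) and in neither HSC library, with a weaker peak of fold 9.92 in HSC replicate 2. H6pd, the hexose-6-phosphate dehydrogenase of the endoplasmic reticulum, was likewise LSC-only (folds 31.1 and 18.6), with weaker HSC peaks of fold 16.7 and 9.73. Srebf1, a sterol and lipid transcription factor, was listed in both HSC libraries (folds 38.0 and 15.9), with a weaker LSC replicate 2 peak of fold 14.2. Coq8a, a CoQ synthesis kinase-like gene, and Fdft1, squalene synthase, had no peak at a gene end in any of the 4 deposited lists. The share of all genes without such a peak is not given, so this count has no baseline here. These 3 group-specific calls among 78 genes (2 LSC-only and 1 HSC-only) stand beside 0.932% and 0.873% of all genes, and were not tested.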

How the data were processed

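The authors deposited 1 narrowPeak list for each library, and no list of pooled samples was used here. Per the submitters' processing notes FastQC 0.11.5, Bowtie2 2.2.9, MACS2 and ChIPseeker were used with build mm10; the settings, calling threshold and duplicate removal were not given in the sources used here. The input was 2000 to 5000 cells, amplified for 17 to 20 PCR cycles, per the labels' protocols. The deposited fold is the ratio of summit pileup plus 1 to the background of the same library plus 1. The deposited −log10 p and −log10 q test that pileup, and the score, as the authors' files hold it, is the −log10 q multiplied by 10. Summit offsets are in bp.

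Records on the 19 autosomes, X and Y were used, and those with equal start and end were reduced to the strongest one, in python 3.11.15 with pandas 2.3.3 and numpy 2.4.6; figures used matplotlib 3.10.9. From fold and −log10 p the pileup was recovered, and it was a whole number (tolerance 0.05) for 100% of 3000 peaks tested per library, with scipy 1.17.1. The lowest pileup of a deposited peak was 18 and 16 in LSC replicates 1 and 2, and 14 and 18 in HSC replicates 1 and 2. Gene bodies and starts were those of RefSeq (GRCm38.p6). Windows were the gene body with 10000 bp flanks, 1000 bp around gene ends and 1000 bp around RefSeq starts. The members and gene lists were chosen with earlier results of these data known, so no count is independent support. All members are named, and of the route lists those genes listed in all 4, in one group alone or without any peak. Neighbouring genes are named where a listed peak at a member lies within 1000 bp of their ends. No test was run between the groups of 2 libraries, and counts stand beside those of all protein-coding genes. Window calls and pileup recovery were tested on simulated data. Alternatives were the list length, flank, window, overlap and ranking rules, a −log10 q of at least 10, and leaving out each library.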

Additional observations from a re-analysis of the deposited data

How the results depend on the processing

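No paired analysis was possible because the results are counts of peak calls that come from no test, so there was no fit to block; counts within each replicate number are given in its place. Members with a peak of any strength stayed within 1.5 times of the reported counts under the 4 alternatives tried for them. Listed members at the locus numbered 4 in LSC replicate 1 and 2 in HSC replicate 1 with the 10000 strongest peaks, and 9 in HSC replicate 1 with the 40000 strongest. Members listed in all 4 libraries numbered 1 with the 10000 strongest peaks, 7 with the 40000 strongest, 10 with the full lists, 1 without flanks and 0 at gene ends. HSC-only members numbered 1 with the 40000 strongest peaks, and LSC-only members 1 with flanks of 5000 bp and 1 without flanks. Leaving out 1 library gave 2 to 6 members in all remaining libraries, 0 to 4 LSC-only and 0 to 1 HSC-only. Within replicate number 1 the counts were 4 listed in both, 4 in LSC alone and 0 in HSC alone, and within replicate number 2 they were 6, 1 and 1. At gene ends, 5, 8 and 9 members had a peak in LSC replicates 1 and 2 and HSC replicate 2 with the full lists, and windows of 3000 bp gave 4 in LSC replicate 1. Route genes numbered 52, 65, 35 and 66 with the full lists in LSC replicates 1 and 2 and HSC replicates 1 and 2, and 9 in HSC replicate 1 with the 10000 strongest peaks. Requiring 50% of each peak in the window left every locus count within 1.5 times. Ranking by fold also left them unchanged, but it could not do otherwise. Within a library, fold and −log10 p both rise with the same pileup over 1 background. Of the 40 strongest folds per member and library, 28 were the same and 12 lower when flanks were left out. Shares of all genes under most of these alternatives are not given. The cause of each change was not tested beyond the shorter or longer list or window itself. Depth is unknown, so a missing peak means only that none was called.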
